A study of Mus musculus with 36 samples.

Results

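A set of 10 genes of Fc receptors and paired immunoglobulin-like receptors were followed in whole-brain RNA of mice with experimental autoimmune encephalomyelitis (EAE), an immune disease of the myelin used as a model of multiple sclerosis. They were taken by symbol from a list, 10 of 54532 genes in the count table, and all 10 passed the filter on low counts that left 18438 genes for testing. The activating genes were Fcgr1, Fcgr3, Fcgr4 and Fcer1g, and the inhibitory genes were Fcgr2b, Pirb, Lilrb4a, Cd300lf and Cd300a. Lilr4b was put in neither class. The 36 libraries came from wild-type C57BL/6 mice sampled when disease peaked, on day 19. Mice with EAE had been immunized under the skin with a peptide of the myelin protein MOG, using complete Freund's adjuvant and pertussis toxin. They were left untreated (n = 9), gavaged daily with corn oil as vehicle (n = 9), or gavaged with trans,trans-farnesol, an isoprenoid alcohol, dissolved in the same oil at a daily dose of 100 mg/kg (n = 10). Naive mice (n = 8) were the healthy controls, and no group received adjuvant and toxin without the peptide, so disease and immunization cannot be told apart. No age or sex is stated in the labels.

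Fc gamma receptors bind the constant part of immunoglobulin G and tell phagocytes that a target is coated with antibody. Fcgr1, Fcgr3 and Fcgr4 bind it but signal through Fcer1g, the common gamma chain, whose tyrosine motif (ITAM) recruits the kinase Syk and starts phagocytosis and cytokine release. Fcgr2b carries an inhibitory tyrosine motif (ITIM) that recruits phosphatases and holds the activating receptors back, so the balance of both kinds sets how a microglial cell, macrophage or neutrophil answers an immune complex. Pirb, Lilrb4a, Cd300lf and Cd300a carry ITIMs as well: Pirb binds class I histocompatibility molecules and the myelin proteins Nogo, MAG and OMgp, Lilrb4a (gp49B) restrains myeloid cells and mast cells, and Cd300lf and Cd300a recognise lipids such as ceramide and phosphatidylserine. Lilr4b (gp49A) is the near copy of Lilrb4a that lacks the ITIM.

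By GENCODE M21 on GRCm38, the Fc receptor genes lay close together on chromosome 1, apart from Fcgr1. Fcgr2b (ENSMUSG00000026656) was at chr1:170958617-170976547, Fcgr4 (ENSMUSG00000059089) at chr1:171018920-171029761, Fcgr3 (ENSMUSG00000059498) at chr1:171051174-171064935 and Fcer1g (ENSMUSG00000058715) at chr1:171229572-171234365. Fcgr1 (ENSMUSG00000015947) was at chr3:96282909-96293969 and Pirb (ENSMUSG00000058818) at chr7:3711409-3720391. Lilr4b (ENSMUSG00000112023, chr10:51480632-51486703) and Lilrb4a (ENSMUSG00000112148, chr10:51490956-51496611) were neighbours, and Cd300a (ENSMUSG00000034652, chr11:114890041-114904654) and Cd300lf (ENSMUSG00000047798, chr11:115116214-115133992) lay on chromosome 11. All are protein-coding.

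The bases just before the start of the Fc gamma receptor genes and of Pirb are printed here because these genes rose together, yet by very different amounts. Each run is the 250 bases before the RefSeq start (GRCm38.p6), 5′ to 3′ on the gene's strand. For Fcgr3 and Fcgr2b the whole run lies inside the GENCODE span of the gene. The bases before the outer end of those spans were not searched. Capitals mark a match on either strand to GAGGAA (the core of PU.1 sites, a master factor of myeloid cells), TTCNNNGAA (the GAS element of interferon-responsive genes) or the interferon response element ISRE (GAAA, 2 bases of any kind, GAAA).
Fcgr1 (chr3:96293970-96294219, minus strand): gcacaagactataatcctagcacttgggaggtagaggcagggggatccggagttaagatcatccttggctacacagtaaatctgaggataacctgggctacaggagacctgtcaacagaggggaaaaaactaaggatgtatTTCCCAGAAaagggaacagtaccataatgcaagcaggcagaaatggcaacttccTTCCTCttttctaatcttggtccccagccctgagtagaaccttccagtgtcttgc
Fcgr3 (chr1:171059404-171059653, minus strand): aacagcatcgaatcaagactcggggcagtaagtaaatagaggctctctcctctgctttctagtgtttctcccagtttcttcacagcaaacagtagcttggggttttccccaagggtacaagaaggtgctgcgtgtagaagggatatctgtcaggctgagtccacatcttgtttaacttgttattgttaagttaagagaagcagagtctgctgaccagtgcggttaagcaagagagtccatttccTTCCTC
Fcgr4 (chr1:171018676-171018925, plus strand): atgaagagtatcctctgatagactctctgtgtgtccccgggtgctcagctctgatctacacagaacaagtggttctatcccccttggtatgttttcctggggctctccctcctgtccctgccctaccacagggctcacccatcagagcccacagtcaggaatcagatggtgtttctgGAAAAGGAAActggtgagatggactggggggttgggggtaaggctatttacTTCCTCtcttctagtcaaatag
Fcgr2b (chr1:170976072-170976321, minus strand): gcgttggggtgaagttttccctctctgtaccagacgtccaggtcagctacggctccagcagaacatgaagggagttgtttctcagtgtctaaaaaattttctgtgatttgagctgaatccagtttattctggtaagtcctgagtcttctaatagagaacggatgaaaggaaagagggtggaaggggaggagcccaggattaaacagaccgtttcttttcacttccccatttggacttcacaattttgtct
Pirb (chr7:3720383-3720632, minus strand): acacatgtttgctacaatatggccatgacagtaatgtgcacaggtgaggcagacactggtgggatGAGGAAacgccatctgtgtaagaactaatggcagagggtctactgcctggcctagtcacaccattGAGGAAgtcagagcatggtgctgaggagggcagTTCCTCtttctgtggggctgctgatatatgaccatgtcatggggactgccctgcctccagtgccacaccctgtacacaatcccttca

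RefSeq gave a start for 9 of the 10 genes, and for Fcgr3 more than 1. GAGGAA was in the windows of 6 of these 9 (Fcgr1, Fcgr3, Fcgr4, Pirb, Cd300lf and Cd300a) and in 23.4% of all 32536 different windows of that length. Pirb held it 3 times. TTCNNNGAA was before Fcgr1, 109 bases from the start, and before Lilr4b, against 7.04% of all windows. The ISRE letters were before Fcgr4 alone among the 9, 73 bases from the start, against 2.98% of all windows. No match of the 3 motifs overlapped another in the runs shown, and Fcgr2b held none. These are matches of letters in short windows, and binding was not measured.

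Total counts ranged from 14.7 to 24.2 M per library. Libraries fell into 2 sets by the ribosomal RNA gene CT010467.1: its level in CPM (counts scaled by library size) was 1301 to 2816 in every untreated and vehicle library and 3 of the farnesol group, and 5157 to 17624 CPM in all naive libraries and the other 7 of the farnesol group. For untreated and vehicle mice, disease and library set cannot be told apart, and only the farnesol group spans both sets. Sbp, which encodes spermine-binding protein of the prostate, was above 1 CPM in 5 untreated and 3 vehicle libraries, and 3 libraries (untreated 3, farnesol 2 and naive 4) were low in genes of the cerebellum. Summed markers of neurons, such as Snap25, stood at 5178 to 7103 CPM over all libraries. The labels do not say how animals were batched, so p-values measure the spread between these libraries.

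Against naive brain, nearly all of the receptors were higher in every EAE group. In untreated EAE, 9 of 10 genes rose, where 24.9% of all tested genes were called (13.6% higher). In vehicle EAE 10 of 10 rose (31.5% of all genes called, 16.3% higher), and in farnesol EAE 9 of 10 rose (34.2% called, 17.9% higher). Calls are from edgeR's quasi-likelihood test at an adjusted p below 0.05 (Benjamini-Hochberg over all tested genes), and the 3 comparisons share the same naive libraries. With the library set as a term in the model, calls fell to 2 of 10 in untreated EAE (Pirb and Lilr4b) and 4 of 10 in vehicle EAE (these and Lilrb4a and Fcgr4), and 9 of 10 stayed in farnesol EAE. Over all genes that term left 175 calls in untreated and 684 in vehicle EAE. The values and list counts that follow are from the fit without it. Fcgr4, Lilrb4a and Lilr4b had fewer than 10 counts in every naive library. They passed the filter only through EAE libraries, so these members could only be seen to rise. The median log2 change of all tested genes was between -0.01 and 0.01. In untreated EAE the median log2 change was 1.65 over the 4 activating genes and 2.67 over the 5 inhibitory genes, with Lilr4b at 5.46. Vehicle EAE gave medians of 1.55 and 2.56, and farnesol EAE 1.49 and 2.49. Within both classes the sizes spread widely, from 1.48 to 4.52 among the activating and from 0.46 to 4.90 among the inhibitory genes of untreated EAE. The tissue is a mixture, and more cells of a type and more RNA per cell cannot be told apart.

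**Figure D1:**
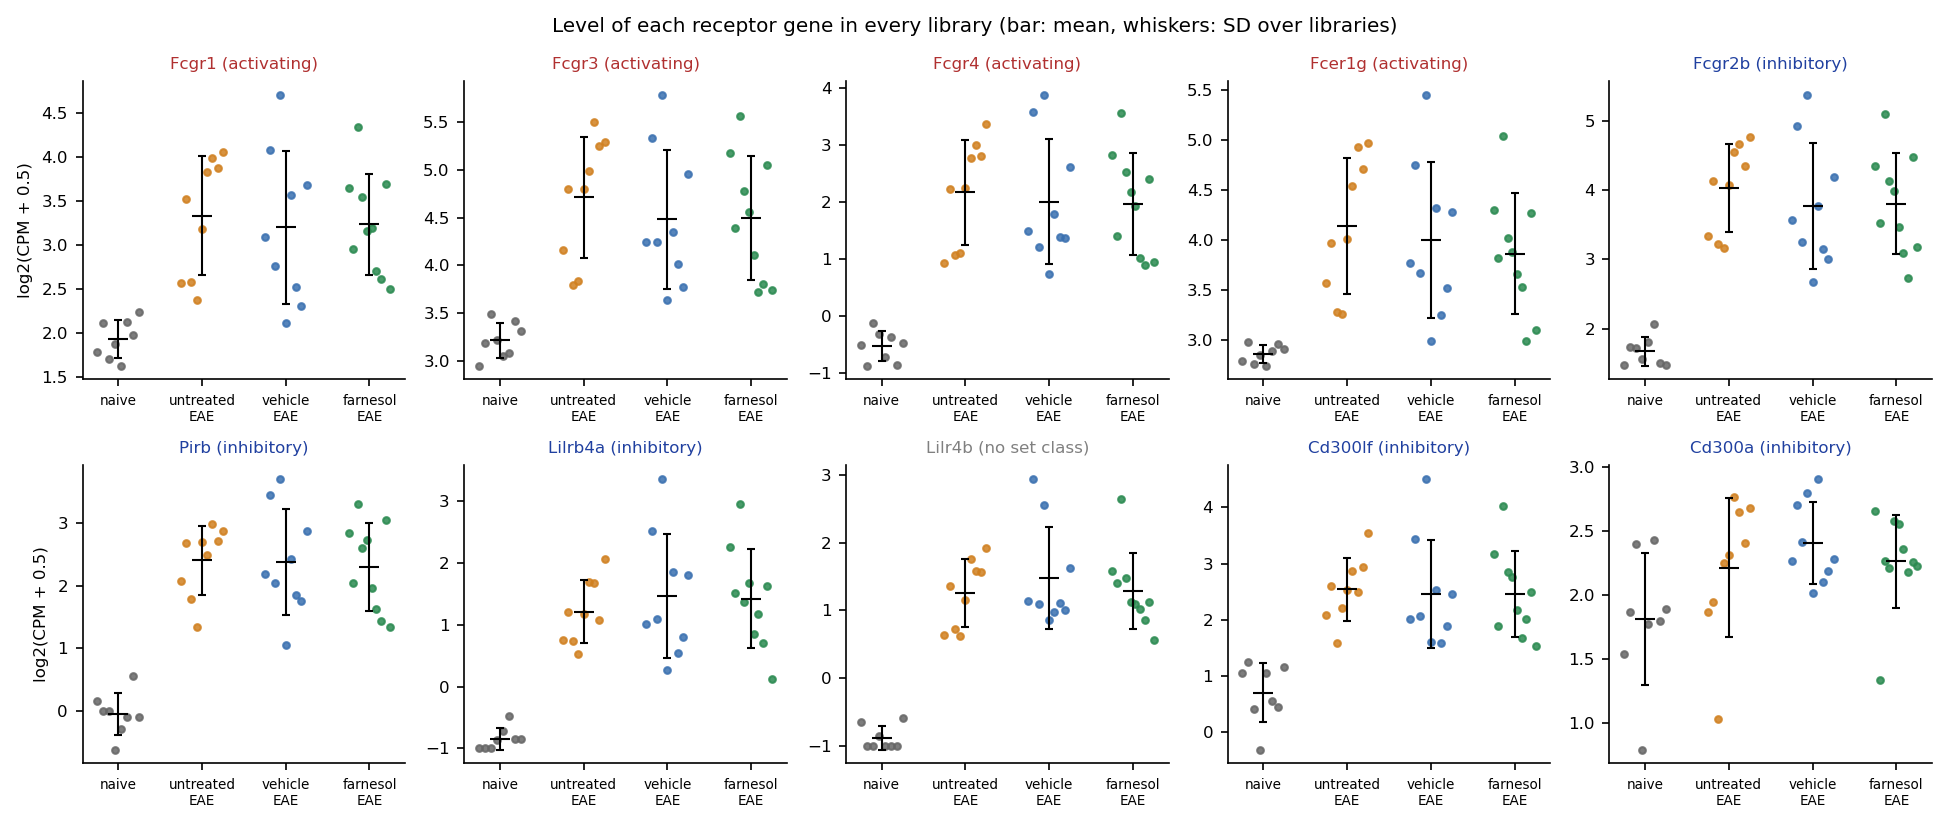
Level of each receptor gene in every library, as log2(CPM + 0.5), in naive (n = 8), untreated (n = 9), vehicle (n = 9) and farnesol (n = 10) mice; points are libraries, bars are means and whiskers are SD. Except for Cd300a, and for 1 vehicle library in Fcgr1, the EAE points lie above all naive points. The share of all tested genes that separate in this way was not computed.

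Fcgr1, the high-affinity receptor for immunoglobulin G, ran from 2.60 to 4.25 CPM in naive libraries (median 3.32). It ran from 4.69 to 16.2 CPM (median 11.0) in untreated, from 3.85 to 25.6 CPM (median 8.05) in vehicle and from 5.16 to 19.8 CPM (median 8.56) in farnesol libraries. All untreated and farnesol libraries lay above every naive library, as did 8 of 9 vehicle libraries. The log2 change was 1.65 ± 0.33 (SE) in untreated (adjusted p = 0.00030, edgeR), 1.63 ± 0.33 in vehicle (0.000256) and 1.53 ± 0.32 in farnesol EAE (0.000434). With the library set as a term, it was 0.99 in untreated and 0.96 in vehicle EAE, and both calls were lost (adjusted p = 0.390 and 0.308).

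Fcgr3, the low-affinity activating receptor of phagocytes and natural killer cells, was the most abundant of the 3 binding chains. Naive libraries held 7.23 to 10.8 CPM (median 8.72). Untreated libraries held 13.4 to 44.6 CPM (median 27.3), vehicle libraries 11.97 to 54.5 CPM (median 18.5) and farnesol libraries 12.7 to 46.6 CPM (median 21.8). No EAE library overlapped the naive range. This was a log2 change of 1.65 ± 0.30 in untreated (adjusted p = 8.7e-05, edgeR), 1.47 ± 0.29 in vehicle (0.000231) and 1.45 ± 0.29 in farnesol EAE (0.000232). The set term took the untreated change to 0.86 and the vehicle change to 0.68, no longer called (adjusted p = 0.393 and 0.432).

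Fcgr4, the mouse receptor that binds immunoglobulin G2a and G2b with intermediate affinity, went from a very low level to one close to that of Fcgr1 per length. Naive libraries held 0.0456 to 0.414 CPM (median 0.212). Untreated libraries held 1.40 to 9.87 CPM (median 4.27), vehicle libraries 1.17 to 14.2 CPM (median 2.31) and farnesol libraries 1.36 to 11.4 CPM (median 3.65), all above the naive range. Its log2 change of 4.52 ± 0.66 in untreated (adjusted p = 5.7e-06, edgeR), 4.53 ± 0.66 in vehicle and 4.33 ± 0.65 in farnesol EAE stood well above those of the other activating genes. Whether it differed from them was not tested. Under the set term it was 3.42 in untreated EAE, a call lost (adjusted p = 0.0643), and stayed called in vehicle EAE at 3.43 (0.0344).

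Fcer1g, the gamma chain that all 3 need, was the steadiest gene in naive brain, from 6.17 to 7.39 CPM (median 6.81). It held 9.09 to 30.8 CPM (median 15.6) in untreated, 7.40 to 43.2 CPM (median 13.1) in vehicle and 7.41 to 32.5 CPM (median 13.9) in farnesol libraries. The groups did not overlap, although the lowest vehicle and farnesol libraries were just above the highest naive library. Fcer1g changed on the log2 scale by 1.48 ± 0.31 in untreated (adjusted p = 0.000438, edgeR), 1.40 ± 0.31 in vehicle (0.000588) and 1.18 ± 0.30 in farnesol EAE (0.00254), the smallest of the activating genes. Under the set term the untreated and vehicle changes were 0.68 and 0.60, and neither was called (adjusted p = 0.543 and 0.521).

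Fcgr2b, the only inhibitory receptor for immunoglobulin G, rose by more than Fcgr1, Fcgr3 or Fcer1g. Naive libraries held 2.27 to 3.70 CPM (median 2.63). Untreated libraries held 8.47 to 26.7 CPM (median 17.0), vehicle libraries 5.88 to 41.1 CPM (median 11.4) and farnesol libraries 6.17 to 33.8 CPM (median 13.2), with no overlap. Its log2 change was 2.67 ± 0.37 in untreated (adjusted p = 3.5e-06, edgeR), 2.56 ± 0.37 in vehicle (3.3e-06) and 2.49 ± 0.37 in farnesol EAE (3.9e-06). The set term lowered the untreated change to 1.88 and the vehicle change to 1.77, and both calls were lost (adjusted p = 0.104 and 0.0737).

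**Figure D2:**
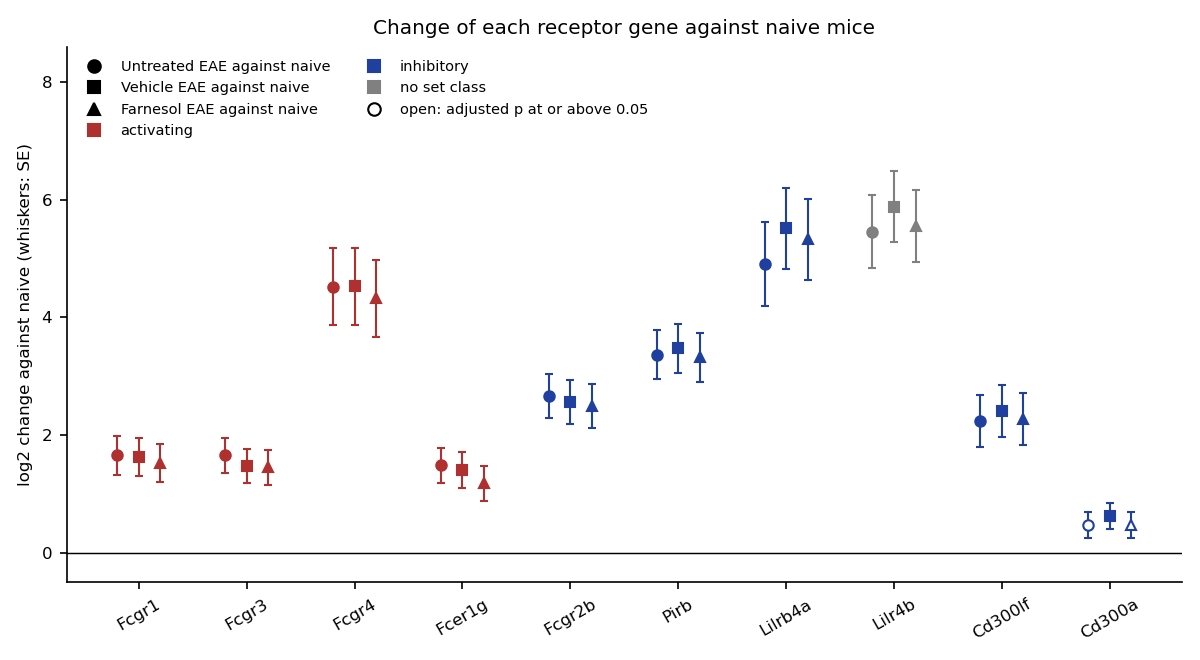
Log2 change of each receptor gene against naive mice in untreated, vehicle and farnesol EAE (edgeR, whiskers are SE), coloured by class, with open symbols where the adjusted p was at or above 0.05. Changes run from 0.46 for Cd300a to 5.88 for Lilr4b, and the 3 comparisons, which share the naive libraries, give similar values for each gene.

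Setting each activating gene against Fcgr2b within the same library removes differences in total depth. Fcgr3 counts per Fcgr2b count ran from 2.16 to 4.37 in naive libraries (median 3.38) and from 1.36 to 1.89 in untreated libraries (median 1.63). Fcgr1 per Fcgr2b ran from 0.873 to 1.86 in naive (median 1.30) and from 0.524 to 0.720 in untreated libraries (median 0.606). Fcer1g per Fcgr2b ran from 1.87 to 3.12 (median 2.67) and from 0.891 to 1.30 (median 1.07). For these 3 the untreated range lay wholly below the naive range.

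Fcgr4 moved the other way: 0.0161 to 0.148 per Fcgr2b count in naive libraries (median 0.0822) and 0.145 to 0.369 in untreated libraries (median 0.260). Its lowest untreated library was just under the highest naive library, and naive ratios rest on few counts. Vehicle and farnesol means lay on the same side, at 1.69 ± 0.268 (SD) and 1.65 ± 0.237 for Fcgr3, and 0.267 ± 0.0684 and 0.254 ± 0.0639 for Fcgr4. As plain ratios of counts, the vehicle range did not overlap the naive range for Fcgr1, Fcgr3, Fcer1g or Fcgr4. In the farnesol group Fcer1g and Fcgr4 did not overlap either, but farnesol 8 lay inside the naive range for Fcgr1 (0.913) and Fcgr3 (2.19). The Fcgr4 separation depended on the scale. As log2 ratios scaled by exon length, with 0.5 CPM added to each gene, naive libraries ran from -0.40 to 0.35. Untreated (-0.21 to 0.81), vehicle (0.13 to 0.86) and farnesol libraries (-0.02 to 0.67) all overlapped them. The sum of Fcgr1, Fcgr3 and Fcgr4 per Fcgr2b averaged 4.72 ± 1.00 in naive mice, 2.49 ± 0.210 without treatment, 2.62 ± 0.233 with vehicle and 2.57 ± 0.324 with farnesol. All 9 untreated, all 9 vehicle and 9 of 10 farnesol libraries were below every naive library, and farnesol 8, at 3.33, was not.

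On a scale that also divides each gene by its exon length, as log2 of CPM per kilobase, the summed activating level exceeded that of Fcgr2b by 3.75 ± 0.28 in naive and by 3.01 ± 0.12 in untreated libraries. Vehicle and farnesol means were 3.07 and 3.03. No test was run on these ratios, since the genes were chosen together with knowledge of the series. Fcgr3 shares 9.6% of its 50-base stretches with Fcgr2b, so some reads may be placed in either, whereas Fcgr1, Fcgr4 and Fcer1g share none with any gene.

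**Figure D3:**
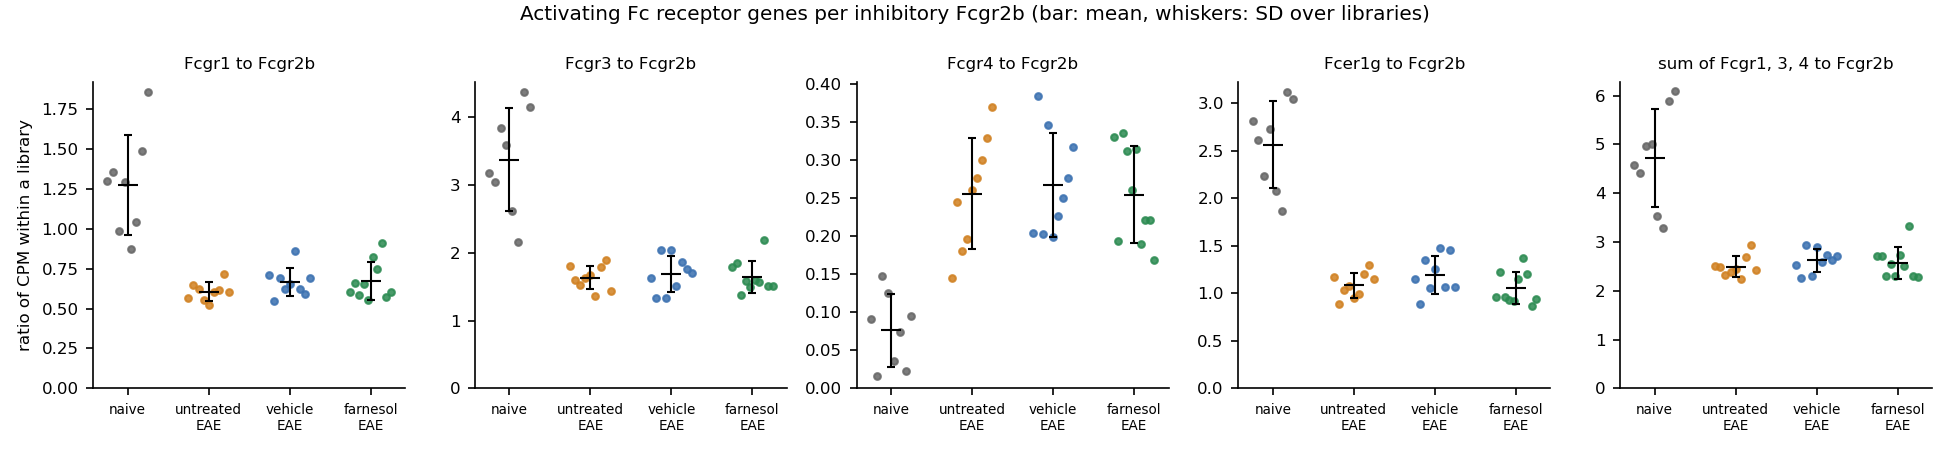
Ratio of the CPM of Fcgr1, Fcgr3, Fcgr4, Fcer1g and the sum of Fcgr1, Fcgr3 and Fcgr4 to that of Fcgr2b in each library (points), with group means and SD. The means of Fcgr1, Fcgr3 and Fcer1g per Fcgr2b are lower in each EAE group than in naive mice and that of Fcgr4 is higher, while farnesol 8 lies inside the naive range for Fcgr1 and Fcgr3.

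Pirb, the paired receptor for class I histocompatibility molecules, held 0.154 to 0.975 CPM in naive libraries (median 0.469). It held 2.04 to 7.41 CPM (median 5.87) in untreated, 1.57 to 12.4 CPM (median 4.03) in vehicle and 2.02 to 9.36 CPM (median 4.59) in farnesol libraries, all above the naive range. Pirb rose on the log2 scale by 3.36 ± 0.42 in untreated (adjusted p = 4.7e-07, edgeR), 3.48 ± 0.42 in vehicle and 3.32 ± 0.41 in farnesol EAE. Its activating partners, the Pira genes, are near copies that share 34.0% of its 50-base stretches in all, so the count of Pirb may include or miss some of their reads. The copy Pira2 held 2 counts over all naive and 26 over all untreated libraries, and Lilra6 held 1 and 28.

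Of the ligands of Pirb, the class I chains H2-K1 and H2-D1 and their light chain B2m rose, by 2.54 ± 0.46, 2.10 ± 0.40 and 2.04 ± 0.41 on the log2 scale in untreated EAE. The myelin ligands moved little: Omg fell by 0.24 ± 0.05 and Rtn4, which encodes Nogo, fell by 0.11 ± 0.04 (adjusted p = 0.000543 and 0.0260, edgeR), while Mag changed by -0.25 ± 0.10 with an adjusted p of 0.0568. The same 3 genes rose and the same pair fell in vehicle and in farnesol EAE.

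Lilrb4a and its neighbour Lilr4b were almost absent from naive brain, with 9 and 6 counts over all 8 libraries. Lilrb4a held at most 0.218 CPM in naive libraries, against 0.947 to 3.66 CPM (median 1.77) in untreated, 0.710 to 9.78 CPM (median 1.63) in vehicle and 0.588 to 7.27 CPM (median 2.22) in farnesol libraries. Its log2 change was 4.90 ± 0.71 in untreated, 5.52 ± 0.69 in vehicle and 5.33 ± 0.69 in farnesol EAE (adjusted p = 5.7e-06, 3.1e-07 and 6.0e-07, edgeR). Under the set term it was 3.501 in untreated EAE, a call lost (adjusted p = 0.0543), and 4.12 in vehicle EAE (0.0105). Lilr4b held at most 0.163 CPM in naive libraries and 1.04 to 3.29 CPM (median 2.06), 1.32 to 7.17 CPM (median 1.65) and 0.980 to 5.75 CPM (median 1.68) in the same order of groups. Its log2 changes of 5.46 ± 0.62, 5.88 ± 0.61 and 5.56 ± 0.61 were the largest of the 10 in each comparison.

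With so few naive counts, the size is uncertain: 384 counts over the untreated libraries against 6 gave a ratio of 52.2 for Lilr4b, with an exact 95% interval from 23.8 to 143 that covers counting error only, and 33.8 (17.6 to 74.5) for Lilrb4a. Lilr4b and Lilrb4a counts were near equal, at 1.05 ± 0.199 Lilr4b per Lilrb4a count (SD, n = 9) in untreated libraries. They share 24.5% and 46.7% of their 50-base stretches with other genes, mostly with each other and with a readthrough gene listed over both that has no counts, so the split between them is uncertain.

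Cd300lf, an inhibitory lipid receptor also known as CLM-1, rose by an amount between those of Fcgr1 and Fcgr2b. Naive libraries held 0.308 to 1.87 CPM (median 1.27), untreated libraries 2.51 to 11.2 CPM (median 5.25), vehicle libraries 2.51 to 22.2 CPM (median 3.71) and farnesol libraries 2.42 to 15.8 CPM (median 4.59). The groups did not overlap. On the log2 scale Cd300lf rose by 2.24 ± 0.44 in untreated (adjusted p = 0.000267, edgeR), 2.41 ± 0.44 in vehicle (7.6e-05) and 2.27 ± 0.43 in farnesol EAE (0.000134). With the set term the untreated and vehicle changes were 1.19 and 1.36, and neither was called (adjusted p = 0.413 and 0.246). The gene sits over introns of Rab37 on the opposite strand, with no shared exon bases.

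Cd300a, a receptor for phosphatidylserine on dying cells, stood apart. Naive libraries already held 1.23 to 4.90 CPM (median 3.06), and untreated (1.55 to 6.33 CPM, median 4.47), vehicle (3.55 to 7.01, median 4.37) and farnesol libraries (2.03 to 5.82, median 4.30) overlapped them. The log2 change was 0.62 ± 0.22 in vehicle EAE (adjusted p = 0.0290, edgeR), and it did not pass in untreated (0.46 ± 0.22, adjusted p = 0.126) or farnesol EAE (0.47 ± 0.22, adjusted p = 0.0944). The set term gave 0.79 in vehicle EAE and ended that call (adjusted p = 0.242).

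The 3 libraries with the lowest Cd300a of all 36 (naive 4 at 1.23, untreated 3 at 1.55 and farnesol 2 at 2.03 CPM) were the 3 low in genes of the cerebellum. Without them Cd300a was called in all 3 comparisons, at 0.45 in untreated (adjusted p = 0.0468), 0.50 in vehicle and 0.43 in farnesol EAE (adjusted p = 0.0416). The vehicle call was lost when vehicle 4, vehicle 6, naive 1 or naive 4 was left out, with adjusted p from 0.0544 to 0.0697. A call appeared in untreated EAE without untreated 3 (adjusted p = 0.0356) and in farnesol EAE without farnesol 2, naive 3 or naive 6 (0.0388 to 0.0488).

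Per exon length, the order in naive brain was Fcer1g (7.73 CPM per kb), Fcgr3 (5.10), Fcgr1 (1.30), Cd300a (0.675), Fcgr2b (0.468), Cd300lf (0.237), Fcgr4 (0.162), Pirb (0.110), Lilrb4a (0.0116) and Lilr4b (0.0081). In untreated EAE it was Fcer1g (21.6), Fcgr3 (16.1), Fcgr1 (4.08), Fcgr4 (3.83), Fcgr2b (2.97), Pirb (1.14), Cd300lf (1.11), Cd300a (0.929), Lilrb4a (0.373) and Lilr4b (0.370). Fcgr4 and Pirb moved up and Cd300a moved down. In untreated EAE, Fcgr1, Fcgr4 and Fcgr2b lay within an SD of each other (1.78, 2.37 and 1.21), as did Pirb, Cd300lf and Cd300a, and the last pair.

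The rise held inside the libraries rich in ribosomal RNA, where naive mice can be set against 7 farnesol mice. All 10 genes were called there, from 0.52 for Cd300a (adjusted p = 0.0498, edgeR) to 5.11 for Lilr4b. In the fits with library set as a term, that term is estimated from the farnesol group alone. All 10 changes stayed above 0 there, and Pirb (2.74) and Lilr4b (4.35) stayed called in untreated EAE. Without the libraries with Sbp, all 10 genes were called in untreated and in vehicle EAE and 9 in farnesol EAE.

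No receptor passed the test between EAE groups. None of 10 was called for vehicle against untreated (0.0217% of all genes called), for farnesol against vehicle (0.0922%; 0.0814% higher, 0.0108% lower) or for farnesol against untreated EAE (1.87%; 0.96% higher, 0.911% lower), and 0 of 10 had an unadjusted p below 0.05 in any of them. DESeq2 also called 0, with an adjusted p for 5 of the 10 genes in vehicle against untreated EAE. For vehicle against untreated EAE, changes ran from -0.18 for Fcgr3 to 0.61 for Lilrb4a (lowest adjusted p = 0.734, edgeR).

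For farnesol against vehicle EAE, log2 changes ran from -0.33 for Lilr4b to -0.03 for Fcgr3, each with an adjusted p of 0.998 (edgeR). The 95% intervals leave room for sizeable changes: from -0.66 to 0.53 for Fcgr2b, from -0.54 to 0.49 for Fcgr3, from -0.66 to 0.46 for Fcgr1 and from -1.03 to 0.62 for Fcgr4. For farnesol against untreated EAE, changes ran from -0.30 for Fcer1g to 0.42 for Lilrb4a (lowest adjusted p = 0.674, edgeR).

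All 10 changes for farnesol against vehicle EAE were below 0, but this direction depended on the libraries. Within the libraries poor in ribosomal RNA, which hold 3 farnesol mice, 9 of 10 were above 0, from -0.28 for Cd300a to 0.61 for Lilrb4a, and limma-voom put 7 of 10 above 0 over all libraries. Without the libraries with Sbp, 5 were above and 5 below 0. Without those libraries all 10 genes were also lower in vehicle and in farnesol than in untreated EAE, by up to -0.76 and -0.83 for Fcgr4 (lowest adjusted p = 0.443 and 0.0830).

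**Figure D4:**
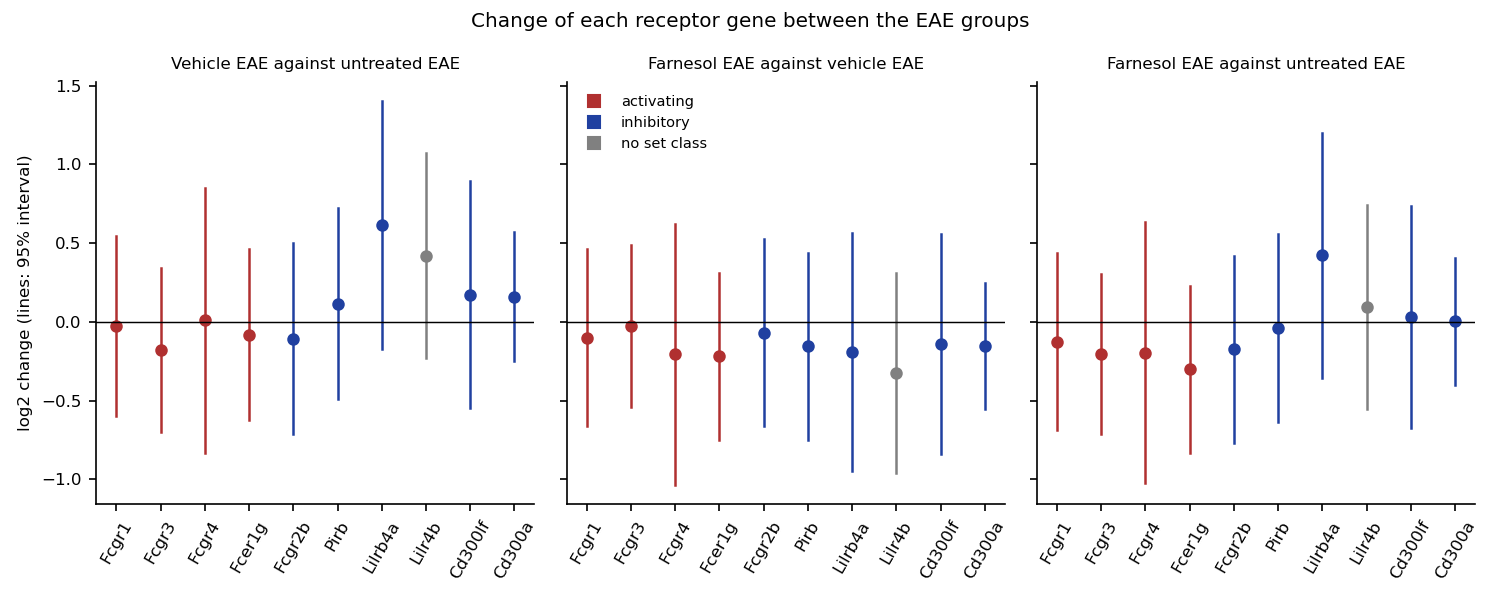
Log2 change of each receptor gene between EAE groups (edgeR), with 95% intervals as lines and class as colour. Every interval crosses 0, and they reach from -1.03 to 1.41.

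Animals within a group differed widely. Vehicle 4 was the highest of all 28 EAE libraries for 8 of the 10 genes, with 25.6 CPM of Fcgr1 and 41.1 CPM of Fcgr2b, and farnesol 3 was among the 3 highest for 9. Vehicle 5 was the lowest for 6 genes, with 3.85 CPM of Fcgr1 and 5.88 CPM of Fcgr2b. The summed level of 12 monocyte and macrophage markers ran from 71.3 to 550 CPM over the vehicle libraries (163 ± 154 CPM, SD). Much of that sum was 1 gene, Lyz2, at 90.9 ± 106 CPM. Disease scores of single animals are not in the labels.

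The kinds of library differed as well. The 5 untreated libraries with Sbp held 19.8 ± 6.99 CPM (SD) of Fcgr3 and 12.1 ± 4.27 CPM of Fcgr2b, and the other 4 held 38.0 ± 5.48 and 23.6 ± 2.98 CPM. The ranges did not overlap for Fcgr1, Fcgr3, Fcgr4, Fcer1g, Fcgr2b, Cd300a and Lilr4b, and they overlapped for Lilrb4a, Pirb and Cd300lf. The share of all tested genes without overlap was not computed. The receptors also moved with each other, so these are not separate results. In vehicle EAE the libraries with and without Sbp overlapped in all 10 genes. The 3 farnesol libraries poor in ribosomal RNA held 34.3 ± 13.1 CPM of Fcgr3, and the other 7 held 19.8 ± 7.91 CPM, with overlap. What part the kind of library has in these levels was not tested.

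**Figure D5:**
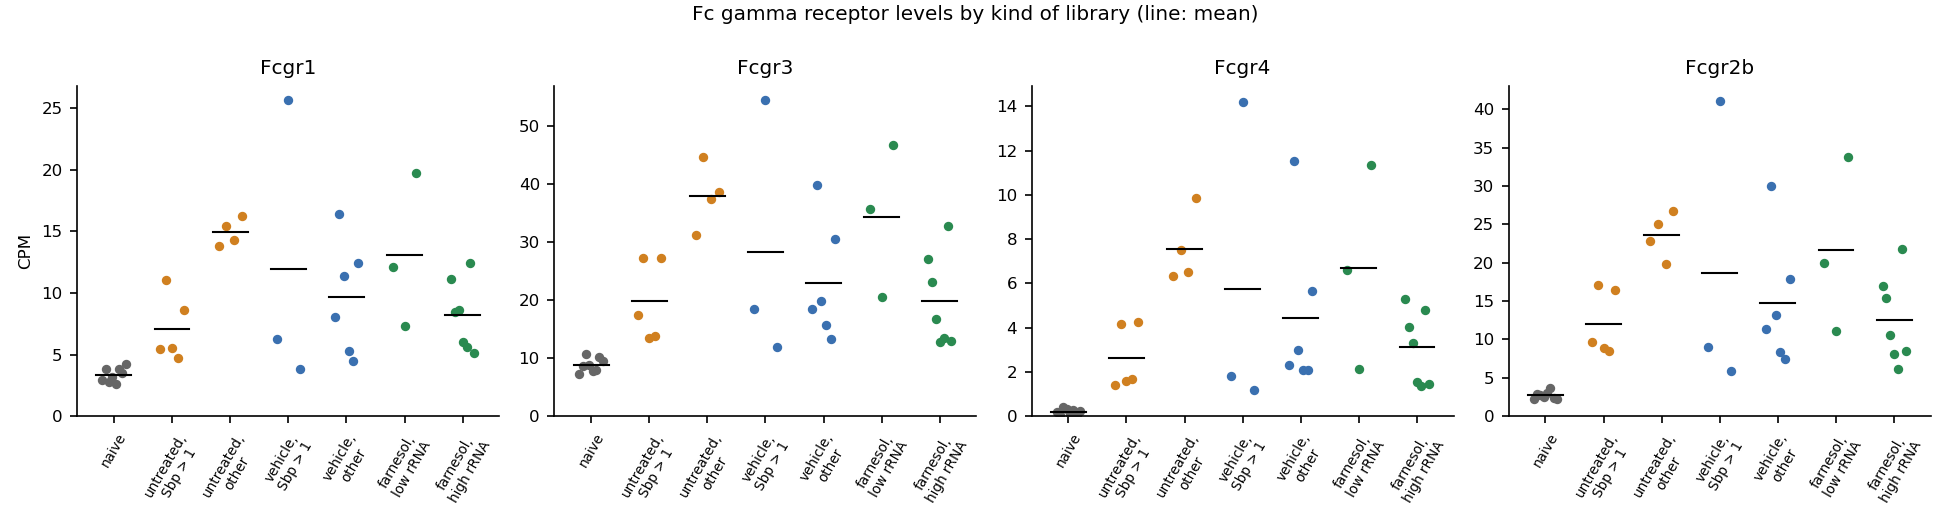
CPM of Fcgr1, Fcgr3, Fcgr4 and Fcgr2b by kind of library: naive, untreated and vehicle libraries with Sbp above 1 CPM or not, and farnesol libraries low or high in ribosomal RNA; points are libraries and lines are means. Untreated libraries with Sbp lie below the other untreated libraries in all 4 genes.

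Over the 28 EAE libraries, with group means taken out, the receptors moved with each other and with genes of activated phagocytes. These correlations of log2(CPM + 0.5) are given as a description, since genes of a library share its animal and depth. Fcgr1 was most like Ctss, a lysosomal protease (r = 0.991), B2m (0.990) and Unc93b1 (0.989). Fcgr3 was most like Ctss (0.973), Rac2 and Ifi207, and Fcer1g most like Ctss (0.982) and the complement genes C1qc and C1qb.

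Fcgr4 was most like Cd52 (0.973) and the chemokine gene Cxcl9 (0.972). Fcgr2b was most like Mpeg1 (0.981), a pore-forming protein of macrophages, Cd52 and Ctss, and among the receptors it was closest to Fcgr4 (0.975). Pirb was most like Zbp1 (0.944), Rac2 and P2ry6, and Cd300lf most like Parp3 (0.955), Nlrc5 and Hk3. Lilrb4a was most like C4b (0.945), Arhgap45 and Irf9, and Lilr4b most like Ifi209 (0.932), Was and Slfn9. Cd300a again stood apart: its likest genes were Btg1 (0.897), Nfkbie and Rps6ka1, and no other receptor reached more than 0.58.

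Other receptors that signal in the same way were higher too. Of 14 tested receptors that activate myeloid cells, 13 rose in untreated, 12 in vehicle and 13 in farnesol EAE and none fell. In the same order, 13.6%, 16.3% and 17.9% of all tested genes were called higher. The median log2 changes of the 14 were 2.39, 2.39 and 2.27. Clec7a, the beta-glucan receptor dectin-1, rose by 3.85 ± 0.68 in untreated EAE. Clec4e, the receptor mincle, had no count in naive mice and 1.10 ± 0.628 CPM in untreated EAE, at least 58.3-fold higher against a floor of 3 counts over the naive group. Clec4d held 0.642 and Trem1, an amplifier of neutrophil responses, 0.372 CPM in untreated EAE, against 0.00575 and 0.0136 CPM in naive brain. Genes this low in naive brain, Clec4e included, passed the filter only through EAE libraries and could only be seen to rise.

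Of 12 tested inhibitory myeloid receptors outside the 10 genes, 10 rose in untreated, 9 in vehicle and 9 in farnesol EAE, with medians of 0.97, 0.82 and 0.87. Sirpa, which binds CD47, fell in vehicle (by 0.13) and farnesol EAE (by 0.18). In untreated EAE, Cd22 rose by 3.22 ± 0.63, Pilra by 2.42 ± 0.51, Cd72 by 1.17 ± 0.30 and Siglece by 1.05 ± 0.27. Whether the activating and inhibitory lists differed was not tested. Of the other Fc receptors 5 were tested and 1 rose in each comparison: Trim21, a receptor for antibody inside the cell, by 1.17 ± 0.33 in untreated EAE. This count is near the share of all tested genes called higher (13.6%, 16.3% and 17.9%). Fcgrt, the neonatal Fc receptor that carries immunoglobulin across vessels, changed by -0.05 ± 0.08, and Fcrls, an Fc receptor-like gene of microglia, by -0.67 ± 0.27 (adjusted p = 0.0691, edgeR).

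Downstream of the receptors, 15 of 18 ITAM adaptors and kinases rose in untreated EAE and 13 in each of the others, with none falling. Over all tested genes, 13.6% (untreated), 16.3% (vehicle) and 17.9% (farnesol) were called higher. The Src-family kinase Fgr rose by 3.70 ± 0.41 in untreated EAE, Sh3bp2 by 1.03 ± 0.21 and Pik3cd by 0.39 ± 0.07. Of 8 phosphatases and adaptors that ITIMs recruit, 4 rose in untreated and 5 in vehicle and farnesol EAE. Among them, Ptpn6, the phosphatase SHP-1, rose by 1.79 ± 0.36, Dok3 by 1.12 ± 0.17, Dok2 by 0.95 ± 0.22 and Inpp5d, the lipid phosphatase SHIP1, by 0.79 ± 0.20 in untreated EAE. All 6 genes of the phagocyte oxidase, which makes superoxide after receptor engagement, rose in each comparison, among them Cybb by 3.21 ± 0.63 and Ncf4 by 2.06 ± 0.32 in untreated EAE.

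Immunoglobulin transcripts, which encode the ligands of Fc receptors, were uneven and, apart from Ighm, low. Ighm held 27.9 ± 10.0 CPM (SD) in untreated and 23.6 ± 4.98 CPM in vehicle EAE. The tested heavy chains of immunoglobulin G, which Fc gamma receptors bind, were Ighg2b and Ighg2c. They held 1.05 ± 1.41 and 3.16 ± 1.60 CPM in untreated EAE, and 0.304 ± 0.447 and 2.00 ± 0.349 CPM in vehicle EAE. Neither was called between these 2 groups (adjusted p = 0.488 and 0.349, edgeR), nor was any other of the 6 tested genes. Too low to test, Ighg1 went the other way, from 0.349 ± 0.302 in untreated to 1.36 ± 3.26 CPM in vehicle EAE. Ighg3, also untested, held 0.344 ± 0.383 and 0.0988 ± 0.0919 CPM. Of 6 tested genes, 4 rose in untreated, 3 in vehicle and 1 in farnesol EAE, where 13.6%, 16.3% and 17.9% of all tested genes were called higher. The farnesol count is near that share. Igha rose by 3.86 ± 0.57 in untreated EAE, from 0.192 ± 0.127 to 2.92 ± 1.70 CPM, and was the gene called in all 3 groups. Igkc held 5.40 ± 5.39 CPM in untreated, 2.16 ± 2.57 in vehicle and 1.78 ± 1.07 in farnesol EAE, against 0.606 ± 0.490 in naive brain. Whether the EAE groups differed in the number of these genes was not tested.

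Markers of several cell types were higher too, where 13.6% (untreated), 16.3% (vehicle) and 17.9% (farnesol) of all tested genes were called higher. Markers near 0 in naive brain, such as F10, passed the filter only through EAE libraries and could only be seen to rise. Monocyte and macrophage markers rose in 10 of 12 (untreated), 11 of 12 (vehicle) and 11 of 12 genes (farnesol), and their sum ran from 37.2 to 41.7 CPM in naive and from 71.3 to 550 CPM in EAE libraries; F10 was at 0 in naive mice. All 10 tested neutrophil markers rose in each comparison, from sums of 3.56 to 6.31 CPM in naive to 14.7 to 78.9 CPM in EAE libraries. Plac8 rose by 5.08 ± 0.59 and S100a9 by 3.90 ± 0.35 in untreated EAE. T cell markers rose in 7 of 8, 7 of 8 and 5 of 8 genes. Of 6 tested dendritic cell markers, 4, 3 and 3 rose, among them Itgax by 4.87 ± 0.75 in untreated EAE. Of 6 tested B and plasma cell markers, 3, 3 and 0 rose, among them Jchain by 1.62 ± 0.43 in untreated EAE.

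Markers of neurons were lower. Of 8 neuron markers, 4 fell in untreated, 6 in vehicle and 8 in farnesol EAE and none rose, where 11.3%, 15.2% and 16.3% of all tested genes were called lower. Gad2, an enzyme that makes the transmitter GABA, fell by 0.31 ± 0.07 in untreated EAE. The summed neuron markers ran from 6394 to 7103 CPM in naive, 5474 to 6715 in untreated, 5197 to 6004 in vehicle and 5178 to 6299 CPM in farnesol libraries. Of 7 astrocyte markers, 3, 1 and 4 fell, among them the glutamate transporter Slc1a2 by 0.47 ± 0.06 in untreated EAE, and 1 rose in each comparison, Gfap by 1.35 ± 0.29 in untreated EAE. Of 8 oligodendrocyte markers, 2 fell in each comparison and none rose. Of 8 endothelial markers, 2 rose in each comparison and 2, 1 and 1 fell.

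Microglia markers moved less. In untreated EAE, 3 of 10 rose (among them Tmem119 by 0.66 ± 0.20 and Olfml3 by 0.51 ± 0.18), where 13.6% of all tested genes were called higher. In vehicle EAE 0 rose and 3 fell (P2ry12, Gpr34 and Slc2a5), where 15.2% of all tested genes were called lower. In farnesol EAE 0 rose and 1 fell (Slc2a5), where 16.3% were called lower, so this count is not above that share. The summed microglia markers ran from 251 to 298 CPM in naive and from 194 to 487 CPM in EAE libraries. Of 9 mast cell and basophil markers only Hdc and Kit were tested, and 0, 1 and 0 rose. Of 7 natural killer cell markers only Gzma and Eomes were tested. None rose and 1 fell, Eomes in farnesol EAE (by 1.09 ± 0.29). The other markers of both lists were too low to test. In untreated EAE Kit stood at 80.5 CPM and Eomes at 9.65 CPM, far above the untested markers. These counts therefore cannot be taken as a measure of either cell type. What part each cell type has in the receptor levels was not tested.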

How the data were processed

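Whole-brain RNA of 36 mice was sequenced, and raw read counts per Ensembl gene were deposited by the authors as 1 table. Reads were mapped with STAR 2.5 to mm10, per the submitters' processing notes, and NEBNext Ultra libraries were made from total RNA, per the labels. The labels' protocol also names Kallisto, which divides reads among near copies. Which tool gave the counts was not given in the sources used here, nor were annotation and strand setting.

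Gene symbols and positions came from GENCODE M21. In R 4.3.3, genes were filtered with filterByExpr (minimum count 10, minimum total 15), scaled by TMM and fitted in edgeR 4.0.16 with 1 mean per group over all libraries. Adjusted p below 0.05 was called. SE is the log2 change over the square root of F. Alternatives used DESeq2 1.42.0, limma 3.58.1 (voom), other filters, a replicate block and subsets of libraries, and 4 for the ratio were added after seeing the data. The pipeline was tested on simulated data. The genes and lists were chosen with earlier results of these data known. Named genes are the 10 receptors, up to 4 of smallest p per list in the comparison described, and the 3 likest per receptor. Sirpa, Rtn4, Mag, F10, Lyz2, Ighm, Ighg1, Ighg2b, Ighg2c, Ighg3, Pira2, Lilra6 and the genes that describe libraries were named after their values were seen. A few genes that the rule names are not reported here.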

Additional observations from a re-analysis of the deposited data

Results flagged for a closer look

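In 10 of 64 sets of values (10 genes and 6 ratios in 4 groups, without libraries where a ratio had no value), the highest or lowest library lay far from the rest by Dixon's test. Chance does this for about 5% of sets if they are independent and their values normally spread. Here CPM was used without a log, the receptors moved together and most ratios share Fcgr2b. The 10 sets are therefore not separate findings and cannot be set against that 5%. Farnesol 3 was set apart as the highest of its group for Fcgr1 (19.8 CPM, next 12.4), Fcer1g (32.5, next 19.2), Fcgr4 (11.4, next 6.60), Cd300lf (15.8, next 8.50) and Lilr4b (5.75, next 2.48). Vehicle 4 was set apart for Cd300lf (22.2 CPM, next 10.3) and Lilrb4a (9.78, next 5.22). Farnesol 2 was the lowest for Cd300a, at 2.03 CPM against a next value of 4.03. Farnesol 8 was the highest of its group in the sum of Fcgr1, Fcgr3 and Fcgr4 per Fcgr2b, at 3.33 against 2.73. Untreated 8 was the highest in Lilr4b per Lilrb4a count, at 1.53 against 1.14.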

How the results depend on the processing

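Of 827 changes against naive recomputed for the 10 receptors under alternatives, 802 kept their side of the threshold, 17 lost and 8 gained it, and none changed sign. Most of the 827 come from fits that leave out only 1 library (17 untreated, 17 vehicle and 18 farnesol fits per gene). Such fits stay close to the main fit by design, so the 802 is not a measure of robustness. With library set as a term, 2 receptors were called in untreated (from 9) and 4 in vehicle EAE (from 10); the set term rests on the farnesol group. The other 4 losses and all 8 gains concern Cd300a. A minimum count of 50 removed Lilr4b from the test. Leaving out 1 library gave 9 to 10 called receptors in each comparison with naive and 0 to 0 between EAE groups. With the replicate number as a block, 9, 10 and 9 receptors were called against naive and 0 between EAE groups, and the signs for farnesol against vehicle became 6 above and 4 below 0. Same-numbered libraries of different groups did not deviate together (51 pairs, r from -0.38 to 0.43, median 0.01), and 5 of 36 libraries correlated best with their own number, so numbers only name animals. The log2 ratio of activating to inhibitory receptors depended on length: without length scaling the means were 2.13 (naive), 1.32 (untreated), 1.39 (vehicle) and 1.36 (farnesol), and with the longest coding transcript 3.32, 2.55, 2.61 and 2.58. Its difference from naive ran from -0.54 to -0.83 over the pseudocounts and lengths tried.

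Counts of all genes called moved by over 1.5 times in several settings. With the set term they were 175 (untreated) and 684 (vehicle against naive, from 4586 and 5808), and 11, 1 and 56 for vehicle against untreated, farnesol against vehicle and farnesol against untreated EAE (from 4, 17 and 345). In the same order, DESeq2 gave 46, 53 and 582, the 2 groups alone 1, 8 and 128, and the replicate block 10, 7 and 202. Libraries poor in ribosomal RNA gave 1, 0 and 12, and those without Sbp 0, 7 and 225. Vehicle against untreated was 7 with RLE, 15 with voom and 8 with a minimum count of 50, and farnesol against untreated 229 with that minimum. Without libraries low in cerebellar genes these were 1 and 567. Leaving out 1 library gave 0 to 15, 8 to 36 and 210 to 500.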
